A study of Mus musculus with 6 samples.

Results

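Monocyte and macrophage transcripts were examined in wound tissues of diabetic mice. The 44 genes were chosen by name from a table of 33184 genes, as known identity, lysosomal, scavenger and efferocytosis genes of these cells. All 44 were found in it by Ensembl ID and mouse symbol. The choice was made with earlier results of these data known, so the list is not taken as independent of the values. All mice were db/db, a line without a working leptin receptor that becomes obese and diabetic, and all had a round full-thickness wound of 0.6 cm in the skin. The NC group received NC-siRNA, a control siRNA, near the wound edge at dpi1, the first day after injury, and the other group received SFRP2-siRNA in the same way. Wound tissues were frozen at dpi4, and the library titles carry day 3. Each group had 3 libraries, and no source used here says that each came from a different mouse. The labels do not give age or sex, and the study lists several SFRP2 siRNA sequences without saying which of them each library received. The siRNA was injected into the tissue and not aimed at a cell type, and whole wound tissue was sequenced, not sorted macrophages.

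Macrophages are the phagocytes that clear microbes, dead neutrophils and debris from a wound. They come from skin-resident cells and from blood monocytes that enter after injury, and they depend on the growth factor receptor encoded by Csf1r and on PU.1, the transcription factor encoded by Spi1. Scavenger receptors and Fc receptors take up particles, and efferocytosis is the uptake of dying cells, in which bridging proteins link the lipid phosphatidylserine on the dying cell to receptors such as Mertk. The cargo is then broken down by lysosomal proteases called cathepsins.

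Values are FPKM, read counts scaled to gene length and sequencing depth, so levels can be compared between genes. They rested on 42900000 to 47100000 reads per library, and a member was covered by 38 to 270120 reads in a library. Sfrp2, the target of the siRNA, had 11.6 to 40.6 FPKM in NC and 50.6 to 55.2 in the group that received its siRNA, a difference opposite to a knockdown (log2 fold change 1.45, SE 0.43, adjusted limma p 0.518, exact permutation p 0.1). An exchange of group labels and an siRNA that does not lower the RNA cannot be told apart from these values. A part of differing cell content between the samples was not tested. Every direction given here is that of the libraries as labelled and not that of a loss of Sfrp2. A pair of libraries stood apart. The mitochondrially encoded genes took 35.8% of the summed FPKM in NC 1, against 11.8% to 22.2% in the other 5 libraries. The summed FPKM of 10 hair follicle markers was 23.1 in SFRP2-siRNA 1, against 2197 to 4379 in the others. The member counts, and one line for each role, are also given without these 2 libraries.

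All 44 chosen genes were detected in the wound tissues, some of which, such as Apoe and Axl, are also made by other cells. Each member averaged 0.5 FPKM or more over all libraries, the limit for a test, and none was at 0 in any library. The NC mean was above 100 FPKM for 10 members and under 10 FPKM for 15. The highest was Apoe, the lipid carrier apolipoprotein E, with 2539.6 ± 229.6 FPKM in NC (SD, n = 3), followed by the lysozyme gene Lyz2 with 585 ± 196. The lowest was Timd4, a phosphatidylserine receptor of resident macrophages, with 0.44 ± 0.085 FPKM. Since whole tissue was sequenced, more macrophages and more RNA per macrophage cannot be told apart.

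Most members had higher means in the group labelled SFRP2-siRNA, but none passed the test. The log2 fold change on the scale of log2(FPKM + 1) was above 0 for 41 of 44 members (93.2%), as it was for 71.8% of the 16005 genes tested. The median over the members was 0.72, against 0.13 over all genes tested. No member passed both an adjusted limma p under 0.05 and a log2 fold change beyond 1 in either direction, and neither did any gene tested (0%). The lowest adjusted limma p of a member was 0.518. At an unadjusted limma p under 0.05 there were 15 members (34.1%), all higher, where 6.72% of all genes tested were higher at that p and 2.86% lower. The groups did not overlap for 11 members (25.0%), all of them higher, against 13.9% of all genes tested, and 0 members were lower without overlap, against 3.92%. Timd4, among the 11, passed the limit for a test only through the group where it was higher. With a filter at 2 FPKM, which left out Timd4 and Cx3cr1, the count was 10 (23.8%), against 14.2% of all genes tested. The balance over all genes depended on scaling: 1075 were higher and 458 lower at that unadjusted p, but 419 and 772 after median-of-ratios scaling, which moved the median of all genes to 0 and left that of the members at 0.57. A voom fit on reads recovered from the FPKM also called no gene. With 3 libraries against 3 an exact permutation test cannot give a p under 0.1.

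**Figure D1:**
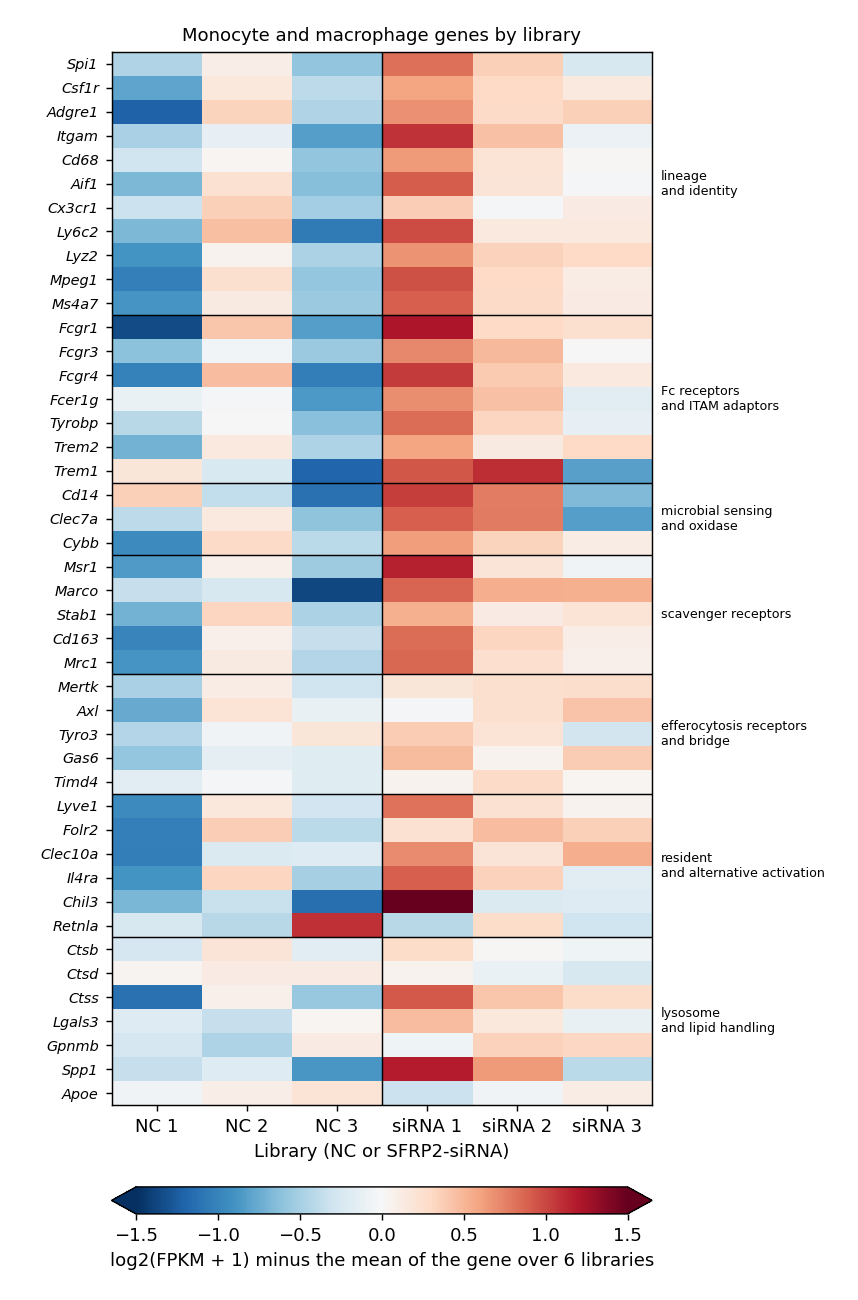
Each row is a member, each column a library, and the colour is log2(FPKM + 1) minus the mean of that gene over the 6 libraries, from blue (lower) to red (higher), saturating at 1.5. SFRP2-siRNA 1 is the highest library for 35 of 44 members and NC 1 the lowest for 24, while NC 2 is redder than NC 1 and NC 3 in most rows.

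Most members shared an order of libraries, also within the groups. SFRP2-siRNA 1 was the highest of the 6 libraries for 35 of 44 members (79.5%), where it was highest for 27.9% of all genes tested. NC 1 was the lowest library for 24 members (54.5%), close to its share over all genes tested, 46.9%. Within the NC group, NC 2 was the highest library for 35 members. Within the other group, SFRP2-siRNA 3 was the lowest for 30. Of the 33 members whose groups overlapped, 22 did so through NC 2 alone, meaning that NC 2 was the only NC library to reach the range of the other group. For the order within the groups and the overlap through NC 2, the share over all genes tested was not counted. This order is therefore not shown to be particular to the members. The heat map of the members by library shows the order.

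These counts depended on single libraries. Without NC 2, 33 members (75%) had groups that did not overlap, where all genes tested gave 25.9%. Without SFRP2-siRNA 3 there were 29 (65.9%), against 22.1%. Leaving out SFRP2-siRNA 1 gave 13 members (29.5%) against 23.7%, and the median log2 fold change of the members was then 0.52. Leaving out NC 1 gave 11 members (25%) against 15.8%, with a median of 0.55. The number at an unadjusted limma p under 0.05 was 6 members without SFRP2-siRNA 1 (13.6%, against 9.22% of all genes tested). It was 9 without SFRP2-siRNA 2 (20.5%, against 5.93%). Near the share of all genes, it was 3 without NC 1 (6.82%, against 5.51%) and 4 without NC 3 (9.09%, against 8.46%). It was 30 without NC 2 (68.2%, against 12.3%) and 26 without SFRP2-siRNA 3 (59.1%, against 8.86%). With NC 1 and SFRP2-siRNA 1 left out together, 39 members were above 0, the median was 0.38, and 13 members (29.5%) had groups that did not overlap, close to the 26.3% of all genes tested. Then 2 members (4.55%) had an unadjusted limma p under 0.05, fewer than the 7.87% of all genes. Values then moved by over 1.5 times on the log2 scale for 31 of the 44 members, and for 30 of these it was closer to 0.

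**Figure D2:**
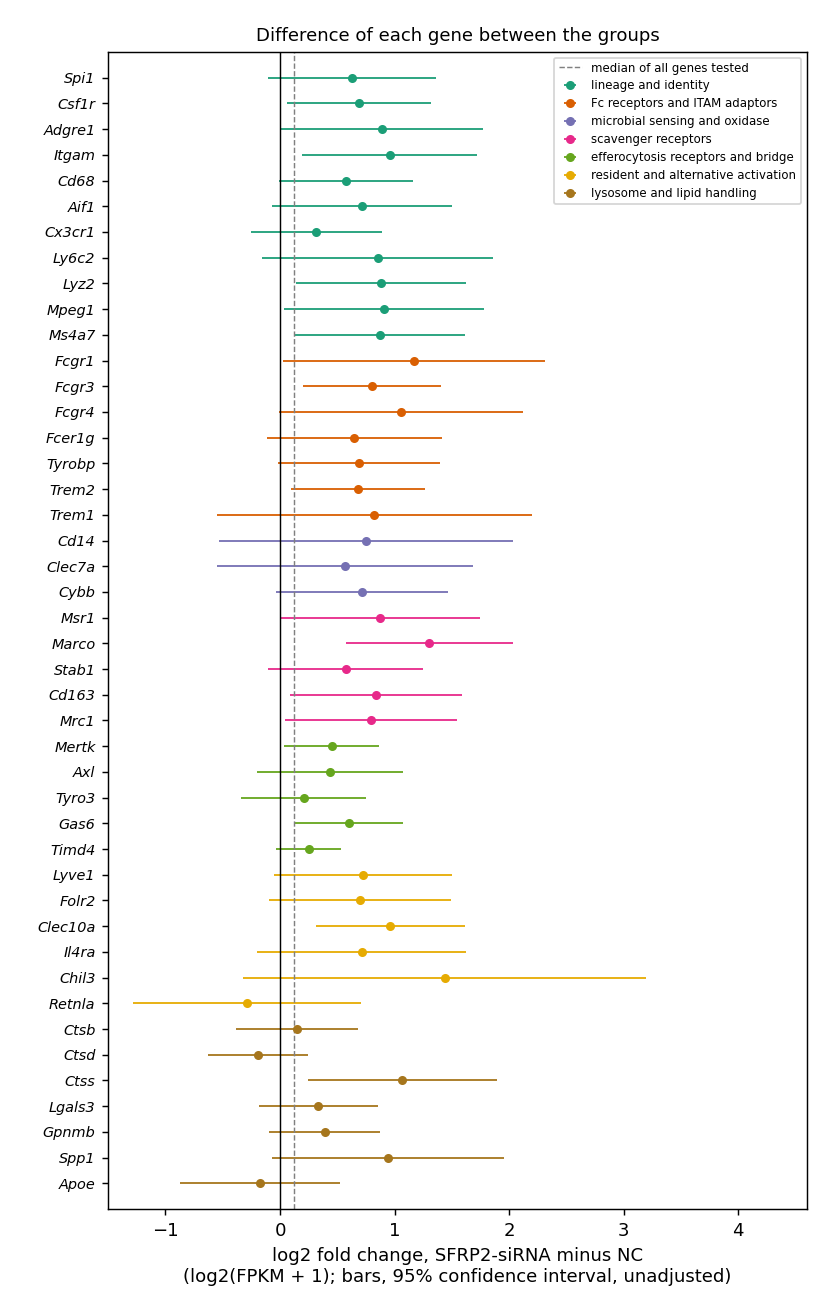
Points are log2 fold changes of the 44 members, SFRP2-siRNA minus NC, on the log2(FPKM + 1) scale, with 95% confidence intervals that are not adjusted for multiple testing; colours are the roles and the dashed line is the median of all genes tested, 0.13. Retnla, Ctsd and Apoe are the members below 0, and Chil3 has the widest interval.

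The 11 lineage and identity genes were all higher on average in the libraries labelled SFRP2-siRNA, with log2 fold changes of 0.31 to 0.96. Groups did not overlap for 2 of the 11, where 13.9% of all genes tested were higher without overlap. Adgre1, which encodes the macrophage marker F4/80, had 8.75, 27.4 and 15.5 FPKM in NC 1, 2 and 3, and 35.2, 26.6 and 27.8 FPKM in SFRP2-siRNA 1, 2 and 3. NC 2 lay between SFRP2-siRNA 2 and 3, and the other NC libraries lay below the whole group. The log2 fold change of Adgre1 was 0.89 (SE 0.37, 95% interval -0.00 to 1.77). Itgam, which encodes the integrin CD11b of macrophages, monocytes and neutrophils, had 5.36, 7.12 and 3.996 FPKM in NC and 17.8, 11.1 and 7.35 in those labelled SFRP2-siRNA. Its groups did not overlap, but SFRP2-siRNA 3 stood only just above NC 2. The log2 fold change of Itgam was 0.96 (SE 0.32), with an exact permutation p of 0.1.

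Csf1r, the receptor through which macrophages receive their survival signal, had 22.6, 44.7 and 30.3 FPKM in NC and 60.6, 49.4 and 44.3 in those labelled SFRP2-siRNA. NC 2 was level with SFRP2-siRNA 3, and the log2 fold change was 0.69 (SE 0.26). Spi1, the gene of PU.1, had 13.05, 19.6 and 11.7 FPKM in NC and 32.9, 23.5 and 15.2 FPKM in the other group. Cd68, an endosomal glycoprotein of phagocytes, had 109.7, 138 and 89.5 FPKM in NC and 211, 157 and 137 FPKM in the other group. In both genes SFRP2-siRNA 3 lay below NC 2, and the log2 fold changes were 0.63 (SE 0.31) and 0.57 (SE 0.25). Lyz2, whose lysozyme cuts bacterial cell walls, had 409, 796 and 551 FPKM in NC and 1227, 974 and 941 FPKM in the other group. Its groups did not overlap, with a log2 fold change of 0.88 (SE 0.31). Lyz2 has a close relative, Lyz1, and how reads that match both were counted is not given in the sources used here. Cx3cr1, the fractalkine receptor of resident and patrolling cells, had the smallest difference of the role. It had 0.89, 2.03 and 0.67 FPKM in NC and 2.06, 1.34 and 1.57 in the other group, and the groups overlapped broadly.

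The remaining identity genes also overlapped between the groups. Mpeg1, a pore-forming protein of phagocytes, Ms4a7, a membrane protein of macrophages, and Aif1, the calcium-binding protein Iba1, had log2 fold changes of 0.91, 0.87 and 0.72. In each of them NC 2 overlapped the other group. Ly6c2, a surface marker of freshly recruited monocytes, had 2.09 to 7.84 FPKM in NC and 6.14 to 11.7 in the other group, a log2 fold change of 0.85 (SE 0.42). It has a near-identical neighbour, Ly6c1, so its value is uncertain. With NC 1 and SFRP2-siRNA 1 left out, the log2 fold changes of Adgre1, Csf1r and Spi1 were 0.38, 0.34 and 0.30, and those of Itgam, Lyz2 and Cd68 were 0.66, 0.53 and 0.39.

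The RefSeq promoter windows of the members were read for short words, because PU.1 binds purine-rich sites with a GGAA centre. A window was available for 35 of the 44 members, in build GRCm38.p6, and the 250 bases before the annotated start were searched on both strands. The word GAGGAA was present in 18 of the 35 member windows (51.4%) and in 23.1% of the 27025 promoters in the table. The longer word GAGGAAGT, which contains it, was present in 4 of 35 (11.4%), against 2.44% of all promoters. Members were chosen for what is known of these cells, so no test was made of this. The word is shown in some of the 18, 5′ to 3′ on the strand of the gene, with capitals for GAGGAA or its reverse complement TTCCTC. The members shown all had a log2 fold change above 0. Apoe and Retnla, with log2 fold changes of -0.17 and -0.29, hold GAGGAA as well, and Retnla also holds GAGGAAGT. The stretches shown therefore do not tie the word to a direction. Itgam (chr7:128062530-128062639, plus strand) holds it in both orientations, Fcgr1 (chr3:96293970-96294079, minus strand), Fcgr4 (chr1:171018816-171018919, plus strand), Trem2 (chr17:48346291-48346400, plus strand) and Mrc1 (chr2:14229304-14229391, plus strand) in reverse, and Marco (chr1:120505085-120505184, minus strand) and Ctss (chr3:95526606-95526705, plus strand) in the forward direction.
Itgam: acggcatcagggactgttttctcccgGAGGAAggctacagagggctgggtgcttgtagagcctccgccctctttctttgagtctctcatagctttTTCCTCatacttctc
Fcgr1: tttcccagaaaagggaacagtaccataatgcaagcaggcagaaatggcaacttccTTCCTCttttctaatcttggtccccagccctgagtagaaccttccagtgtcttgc
Fcgr4: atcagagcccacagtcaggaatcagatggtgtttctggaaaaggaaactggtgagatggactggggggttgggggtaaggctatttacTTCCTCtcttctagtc
Trem2: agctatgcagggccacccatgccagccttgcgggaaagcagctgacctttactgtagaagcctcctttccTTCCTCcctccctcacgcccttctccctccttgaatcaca
Mrc1: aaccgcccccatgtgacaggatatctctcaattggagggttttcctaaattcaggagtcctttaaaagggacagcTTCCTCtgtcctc
Marco: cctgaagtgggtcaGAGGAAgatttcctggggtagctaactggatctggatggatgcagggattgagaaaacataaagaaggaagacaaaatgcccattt
Ctss: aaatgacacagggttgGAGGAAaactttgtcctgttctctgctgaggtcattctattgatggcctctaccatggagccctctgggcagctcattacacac

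The 7 Fc receptor and adaptor genes were also all higher on average, with log2 fold changes of 0.65 to 1.17. The Fc receptors of this role bind antibody-coated particles and signal through the adaptor encoded by Fcer1g. Tyrobp encodes the adaptor of Trem1 and Trem2, and these adaptors carry a tyrosine motif called ITAM. Fcgr1, the high-affinity IgG receptor, had 6.35, 23.8 and 9.46 FPKM in NC and 42.1, 22.0 and 20.9 in those labelled SFRP2-siRNA. NC 2 stood above SFRP2-siRNA 2 and 3, so the groups overlapped although the log2 fold change was 1.17 (SE 0.48). Fcgr3, a low-affinity IgG receptor, had 42.5, 63.9 and 44.1 FPKM in NC and 109.0, 91.9 and 65.3 FPKM in the other group. Its groups did not overlap, by a narrow margin between NC 2 and SFRP2-siRNA 3, and the log2 fold change was 0.80 (SE 0.25). Fcgr4, a further IgG receptor of mice, had a log2 fold change of 1.05 (SE 0.45) with NC 2 inside the other group. Fcgr3 and Fcgr4 are neighbouring relatives, so shared reads could move their values.

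The adaptors had the highest levels of this role. Fcer1g had 167, 177 and 98.0 FPKM in NC and 290, 243 and 160.3 FPKM in the other group, and Tyrobp had log2 fold change 0.69 (SE 0.30). In both adaptors SFRP2-siRNA 3 lay below NC 2. Trem2, a lipid-sensing receptor that signals through Tyrobp, had 5.15 to 10.1 FPKM in NC and 9.998 to 14.1 in the other group, a log2 fold change of 0.68 (SE 0.24). Trem1, an amplifier of inflammation on neutrophils and monocytes that uses the same adaptor, followed another order. It had 15.4, 11.3 and 5.32 FPKM in NC and 26.6, 30.1 and 7.20 FPKM in the other group, so that SFRP2-siRNA 3 lay below NC 1 and NC 2. When the same 2 libraries were left out, Fcgr1 had a log2 fold change of 0.48, Fcgr3 of 0.54, Fcgr4 of 0.55 and Trem1 of 0.86.

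SFRP2-siRNA 3 was also the lowest library of its group for the microbial sensing genes. Cd14, a co-receptor for bacterial lipopolysaccharide, had 117, 69.9 and 41.4 FPKM in NC and 187, 155 and 57.0 in those labelled SFRP2-siRNA. Clec7a, the fungal glucan receptor dectin-1, had 5.49, 8.48 and 4.62 FPKM in NC and 14.9, 13.6 and 3.84 FPKM in the other group. SFRP2-siRNA 3 was thus within the NC range for Cd14 and Trem1 and the lowest of all libraries for Clec7a. The log2 fold changes of Cd14 and Clec7a were 0.75 (SE 0.54) and 0.57 (SE 0.47). Cybb, the catalytic subunit of the phagocyte oxidase, differed in that all 3 libraries of its group lay near or above NC 2, and had 3.57 to 9.77 FPKM in NC and 8.58 to 12.7 in the other group. Neutrophils also express Trem1, Cd14 and Clec7a, and 12 neutrophil markers were summed beside them. Their sum was 1825, 1724 and 1167 FPKM in NC and 4662, 5582 and 1017 FPKM in SFRP2-siRNA 1, 2 and 3, and S100a8 and S100a9 made up most of it, with 926 FPKM of the sum in SFRP2-siRNA 3. The other 10 markers summed to 202, 128 and 75.97 FPKM in NC and 395, 313 and 90.5 in the other group. SFRP2-siRNA 3 was the lowest of its group for 10 of the 12 markers, but the lowest of all libraries for only 3. Without NC 1 and SFRP2-siRNA 1, the log2 fold changes of Cd14, Clec7a and Cybb were 0.79, 0.20 and 0.29. The part of neutrophils in these values was not tested.

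**Figure D3:**
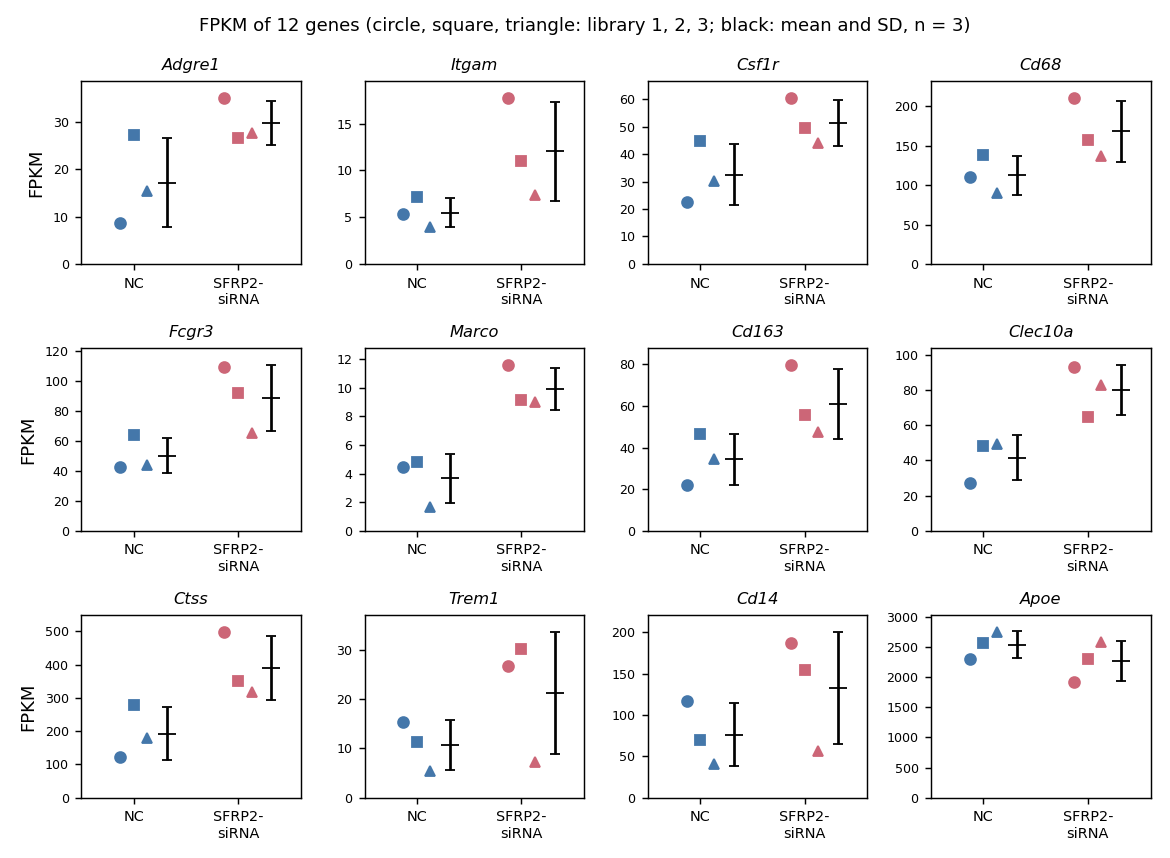
FPKM of 12 members in each library, with the mean and SD of each group in black (n = 3 per group); axes start at 0. Itgam, Fcgr3, Marco, Cd163, Clec10a and Ctss have groups that do not overlap, SFRP2-siRNA 3 lies within the NC range for Trem1 and Cd14, and Apoe shows no separation.

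The 5 scavenger receptor genes had log2 fold changes of 0.57 to 1.30. Marco, a scavenger receptor for bacteria and particles, had the smallest unadjusted p of the 44 members. It had 4.45, 4.83 and 1.68 FPKM in NC and 11.6, 9.11 and 9.02 in those labelled SFRP2-siRNA, and each library of one group was well apart from the other. The log2 fold change of Marco was 1.30 (SE 0.31, 95% interval 0.57 to 2.03), with an adjusted limma p of 0.518. It was 0.94 to 1.57 over all alternatives. Cd163, the receptor that clears haemoglobin, had 21.8, 46.6 and 34.5 FPKM in NC and 79.8, 55.4 and 47.5 FPKM in the other group. Its groups did not overlap, but NC 2 and SFRP2-siRNA 3 were almost level. Mrc1, the mannose receptor CD206, had 22.2, 46.0 and 30.7 FPKM in NC and 77.2, 49.9 and 44.4 FPKM in the other group, and here SFRP2-siRNA 3 lay below NC 2. The log2 fold changes of Cd163 and Mrc1 were 0.84 (SE 0.32) and 0.80 (SE 0.32). Msr1, which takes up modified lipoproteins, had log2 fold change 0.87 (SE 0.37). Stab1, which takes up modified lipoproteins and dying cells, had 16.6, 34.8 and 19.5 FPKM in NC and 40.6, 30.1 and 31.9 FPKM in the other group, the smallest difference of this role. Marco kept a log2 fold change of 1.35 without NC 1 and SFRP2-siRNA 1, while Cd163, Mrc1, Msr1 and Stab1 had 0.35, 0.32, 0.30 and 0.24.

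Differences were smaller in the efferocytosis genes, with log2 fold changes of 0.21 to 0.60. Groups did not overlap for 3 of the 5, where 13.9% of all genes tested were higher without overlap. The 3 include Timd4, whose NC mean of 0.44 FPKM was under the limit of 0.5 for a test. It passed that limit only through its mean of 0.72 FPKM in the other group, so its place in the count is not independent of its direction. Gas6, which bridges phosphatidylserine to the receptors Tyro3, Axl and Mertk, had 63.3, 85.6 and 83.4 FPKM in NC and 132, 98.2 and 123.5 in those labelled SFRP2-siRNA. Its log2 fold change was 0.60 (SE 0.20), the largest of this role on the log2(FPKM + 1) scale, where the added 1 compresses the differences of low genes such as Timd4. Mertk, the receptor most tied to macrophages, had 5.75, 9.24 and 6.71 FPKM in NC and 9.72, 10.2 and 10.4 FPKM in the other group. The 3 libraries labelled SFRP2-siRNA lay close together for Mertk, at 10.1 ± 0.33 FPKM (SD, n = 3), and NC 2 was just below them. The log2 fold change of Mertk was 0.45 (SE 0.17).

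The other receptors of dying cells were less separated. Axl, which is also made by fibroblasts and endothelium, had 21.9, 43.5 and 34.8 FPKM in NC and 37.0, 44.6 and 50.9 FPKM in the other group. SFRP2-siRNA 1, the highest library for most members, was the lowest of its group for Axl. Tyro3 had 3.80, 5.26 and 6.35 FPKM in NC and 7.45, 6.47 and 4.37 FPKM in the other group, with a log2 fold change of 0.21 (SE 0.23) that was -0.10 without NC 1 and SFRP2-siRNA 1. Timd4 had 0.41, 0.54 and 0.38 FPKM in NC and 0.63, 0.92 and 0.61 in the other group. Its groups did not overlap, but it rested on 38 to 91 reads per library. Its log2 fold change was 0.25 (SE 0.12), and 0.59 with 0.1 added in place of 1. Leaving out NC 1 and SFRP2-siRNA 1 gave log2 fold changes of 0.38 for Gas6, 0.34 for Mertk, 0.29 for Axl and 0.27 for Timd4.

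Genes of resident and alternatively activated macrophages differed among themselves. Lyve1 and Folr2, a hyaluronan receptor and a folate receptor, mark resident perivascular macrophages, and Lyve1 also marks lymphatic vessels. Lyve1 had 6.88, 16.1 and 11.6 FPKM in NC and 26.0, 16.9 and 14.9 in those labelled SFRP2-siRNA. Folr2 had 7.71, 22.0 and 12.4 FPKM in NC and 19.8, 23.5 and 21.6 FPKM in the other group. In both genes NC 2 reached the other group, and the log2 fold changes were 0.73 (SE 0.33) and 0.70 (SE 0.33). The recruited monocyte marker Ly6c2 and these resident markers thus had log2 fold changes between 0.70 and 0.85, each with NC 2 inside the other group.

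Clec10a, a galactose lectin of dermal macrophages and dendritic cells, was separated most clearly in this role. It had 27.1, 48.5 and 49.4 FPKM in NC and 92.8, 64.7 and 83.01 FPKM in the other group, a log2 fold change of 0.96 (SE 0.27, 95% interval 0.31 to 1.61). Il4ra, the receptor chain shared by interleukin 4 and interleukin 13, had log2 fold change 0.71 (SE 0.38) and overlapping groups. Chil3 and Retnla encode secreted proteins, Ym1 and RELMα, that mark the response of mouse macrophages to interleukin 4. Chil3 had 7.07, 9.29 and 4.95 FPKM in NC and 76.03, 10.2 and 10.4 FPKM in the other group. The log2 fold change of Chil3, 1.44 (SE 0.74), was the largest of the 44 members and came from SFRP2-siRNA 1, and it was 0.51 without that library. Retnla had 20.2, 17.9 and 52.5 FPKM in NC and 17.9, 29.4 and 19.4 FPKM in the other group. Its log2 fold change was -0.29 (SE 0.42) and turned to 0.18 without NC 3, the library with the highest value. Without NC 1 and SFRP2-siRNA 1, Lyve1, Folr2, Clec10a and Il4ra had log2 fold changes of 0.20, 0.42, 0.57 and 0.17. Chil3 and Retnla belong to families of close relatives, so shared reads could move their values.

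The lysosomal and lipid-handling genes were not uniform, with log2 fold changes from -0.19 to 1.07. Ctss, a cathepsin of antigen-presenting cells, had 121, 279 and 178 FPKM in NC and 499, 352 and 319 in those labelled SFRP2-siRNA. Its groups did not overlap, and the log2 fold change was 1.07 (SE 0.35). Ctsd, a cathepsin found in the lysosomes of nearly all cells, had 318, 337 and 338 FPKM in NC and 322, 288 and 261 FPKM in the other group, a log2 fold change of -0.19 (SE 0.18, 95% interval -0.63 to 0.24). Ctsb, another widely expressed cathepsin, had 349 to 475 FPKM in NC and 395 to 500.4 in the other group. Its log2 fold change was 0.15 (SE 0.22) and became -0.02 with median-of-ratios scaling. Of the 3 cathepsin genes among the members, Ctss differed most. Further cathepsin genes outside the members had log2 fold changes of 0.81 for Ctsk, 0.51 for Ctsc, 0.34 for Ctsl and 0.31 for Ctsz.

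The Ctsd promoter held the palindrome TCACGTGA, an E-box of the kind found at many lysosomal genes, and it is shown because Ctsd was the only member with TCACGTG in its window. That word was present in 1 of 35 member windows (2.86%) and in 3.15% of all promoters. The stretch is chr7:142387910-142387935 in GRCm38.p6, minus strand, with the palindrome in capitals.
Ctsd: gcccgcgtcTCACGTGAcccgttgag

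Spp1 encodes osteopontin, Lgals3 the lectin galectin-3 and Gpnmb a membrane glycoprotein, and all of them are high in lipid-laden and phagocytosing macrophages. Spp1 had 255, 283 and 176 FPKM in NC and 732, 504 and 245 in those labelled SFRP2-siRNA, with SFRP2-siRNA 3 below NC 1 and NC 2 as for Trem1 and Cd14. The log2 fold changes of Spp1, Lgals3 and Gpnmb were 0.94 (SE 0.43), 0.34 (SE 0.22) and 0.39 (SE 0.20). Apoe, which macrophages share with other skin cells, had 2299.5 to 2757 FPKM in NC and 1913 to 2579 in the other group. Its log2 fold change was -0.17 (SE 0.29), and SFRP2-siRNA 1, highest for most members, had the lowest Apoe level of all libraries. Without that library and NC 1, the log2 fold changes of Ctss, Ctsd and Spp1 were 0.58, -0.30 and 0.65.

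To ask which members differed from the identity genes of the same library, the mean log2(FPKM + 1) of the 11 identity genes was subtracted from the other 33. That mean was 3.84, 4.72 and 3.93 in NC and 5.32, 4.80 and 4.63 in those labelled SFRP2-siRNA. The groups overlapped for 30 of the 33 members after this step, and the median difference between the groups was -0.05. Ctss was higher relative to the identity genes, with a difference of 0.32 on the log2 scale and no overlap, as for 0.05% of all other genes tested. The subtracted mean was higher on average in the libraries labelled SFRP2-siRNA, which lowers most genes on this scale and makes that share small. The groups of Ctss lay close, with 3.55 in NC 3 and 3.64 in SFRP2-siRNA 1. Ctsd and Ctsb were lower relative to the identity genes, with differences of -0.95 and -0.60 and no overlap. These were 2 of 33 members, and 17.7% of all other genes tested were lower in this way, so they do not set the members apart. Retnla and Apoe had differences of -1.04 and -0.93 with overlapping groups. Marco had a difference of 0.55, also with overlap, since NC 1 lay within the other group. These values are a description without a test, and the added 1 compresses the differences of low genes such as Timd4.

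**Figure D4:**
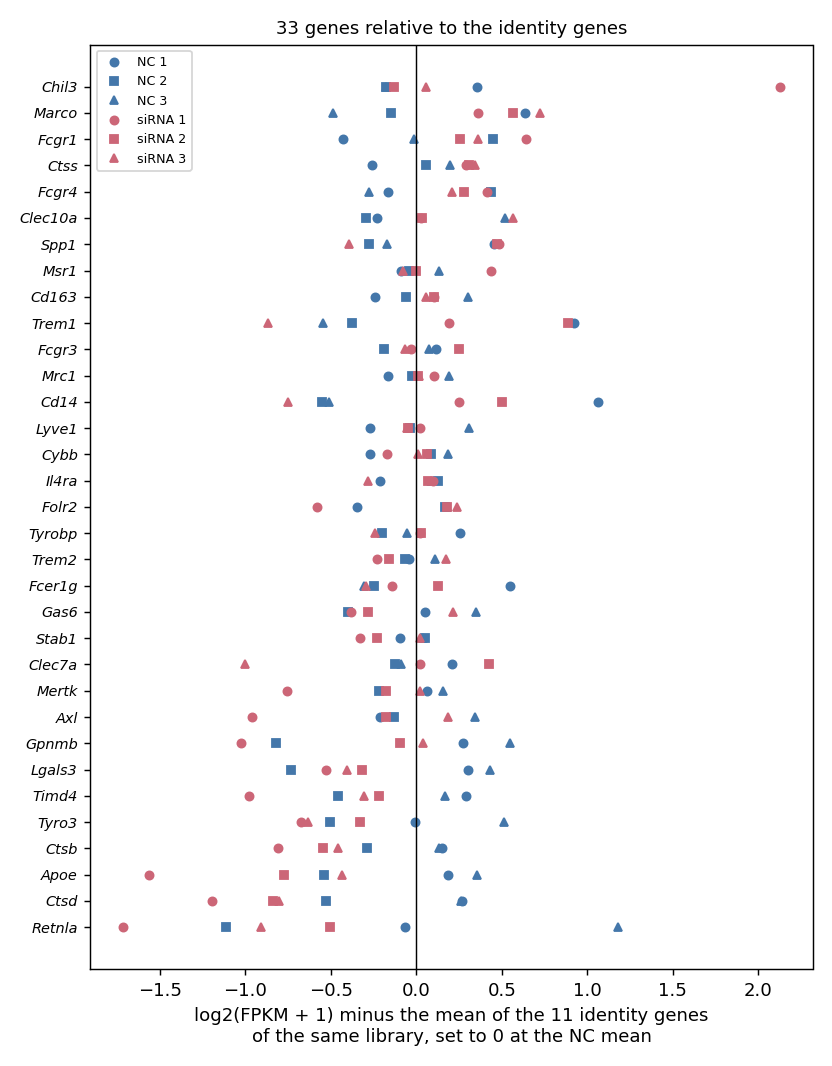
Each row is a member outside the identity role, and each point a library, as log2(FPKM + 1) minus the mean of the 11 identity genes in that library, shifted so that the NC mean is 0. Most rows mix both groups around 0, Ctsd and Ctsb lie lower in those labelled SFRP2-siRNA, Ctss lies higher, and Chil3 is far to the right in SFRP2-siRNA 1 alone.

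Other genes of the same functions were read from lists of phagocyte biology. Of 20 further phagocyte receptor and signalling genes, all were above 0, against 71.8% of all genes tested, with none past the adjusted threshold. Groups did not overlap for 7 of the 20, where 13.9% of all genes tested were higher without overlap. An unadjusted limma p under 0.05 was found for 11, where 6.72% of all genes tested were higher at that p. The median log2 fold change of the 20 genes was 0.79. Laptm5, a lysosomal protein of blood cells, had 20.4 ± 8.64 FPKM in NC and 46.5 ± 10.4 in the other group (mean ± SD over 3 libraries), and its log2 fold change was 1.20 (SE 0.30). Syk, the kinase recruited by ITAM adaptors, had a log2 fold change of 0.78 (SE 0.24). Differences were smaller outside the receptors. The median was 0.29 for 20 further lysosome genes and 0.30 for the 20 tested of 22 further efferocytosis genes. Groups did not overlap for 8 and 5 of these, all higher, against 13.9% of all genes tested. Ctsk, a collagen-degrading cathepsin that fibroblasts make as well, and Grn, the lysosomal protein progranulin, had log2 fold changes of 0.81 and 0.61. Among the efferocytosis genes, the integrin chain Itgb3 and the receptor Sirpa, which reads the signal that spares living cells, had 0.64 and 0.70. Among growth factors and regulators, 10 of 12 tested genes were above 0, with a median of 0.50. Maf, a transcription factor of mature macrophages, had 0.46 (SE 0.17).

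Markers of other cells were measured beside the members, since a wound biopsy holds many tissues. All 10 fibroblast markers were above 0 and 7 did not overlap, against 71.8% and 13.9% of all genes tested. Their summed FPKM was 936, 2075 and 1064 in NC and 2349, 2358 and 2273 in those labelled SFRP2-siRNA. NC 2 thus stood above NC 1 and NC 3 for fibroblast markers as it did for the members. Sfrp2 had the same order, with 40.6 FPKM in NC 2 against 11.6 in NC 1 and 14.1 in NC 3. The part of fibroblasts in the Sfrp2 values was not tested. The fibroblast gene Dcn, a collagen-binding proteoglycan, had a log2 fold change of 0.75 (SE 0.18). Of 7 mast cell markers 6 were above 0 and 4 did not overlap, beside the same 71.8% and 13.9% of all genes tested. Their sums were 95.8 to 109.9 FPKM in NC and 142 to 201 in the other group. Neutrophil markers had 8 of 12 above 0, and dendritic and Langerhans cell markers 5 of 7 tested. Most of the sum of the latter was Epcam, which keratinocytes of the follicle also make, with 21.4 to 49.8 FPKM in NC and 10.9 to 32.8 in the other group. The other 8 listed genes summed to 7.25, 9.62 and 9.48 FPKM in NC and 19.6, 11.6 and 8.01 in the other group. Of 6 tested T cell markers 4 were above 0, and the 6 summed to 6.23 to 12.6 FPKM over all libraries. Endothelial markers were split, with 4 of 8 above 0 and sums of 69.1 to 98.5 and 65.3 to 116.7 FPKM.

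Markers of the fat and the surface of the skin had mostly lower means or varied by library. Of 10 adipocyte markers 9 were below 0, with sums of 2070 to 2735 FPKM in NC and 1056 to 2761 in those labelled SFRP2-siRNA. Of the keratinocyte and the hair follicle markers 8 of 10 each were below 0, where 71.8% of all genes tested were above 0. Keratinocyte sums were 3913 to 6615 FPKM in NC and 3505 to 6831 in the other group. Hair follicle sums were 2197, 2975 and 4367 FPKM in NC and 23.1, 4379 and 3216 in the other group. SFRP2-siRNA 1 alone was far lower there, and SFRP2-siRNA 2 was the highest library. All 10 skeletal muscle markers were above 0, with sums of 3744 to 7567 and 5042 to 14164 FPKM. None of the marker genes tested was at 0 in any library, and none passed the adjusted threshold with limma. The part of these tissues in the values of the members was not tested.

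**Figure D5:**
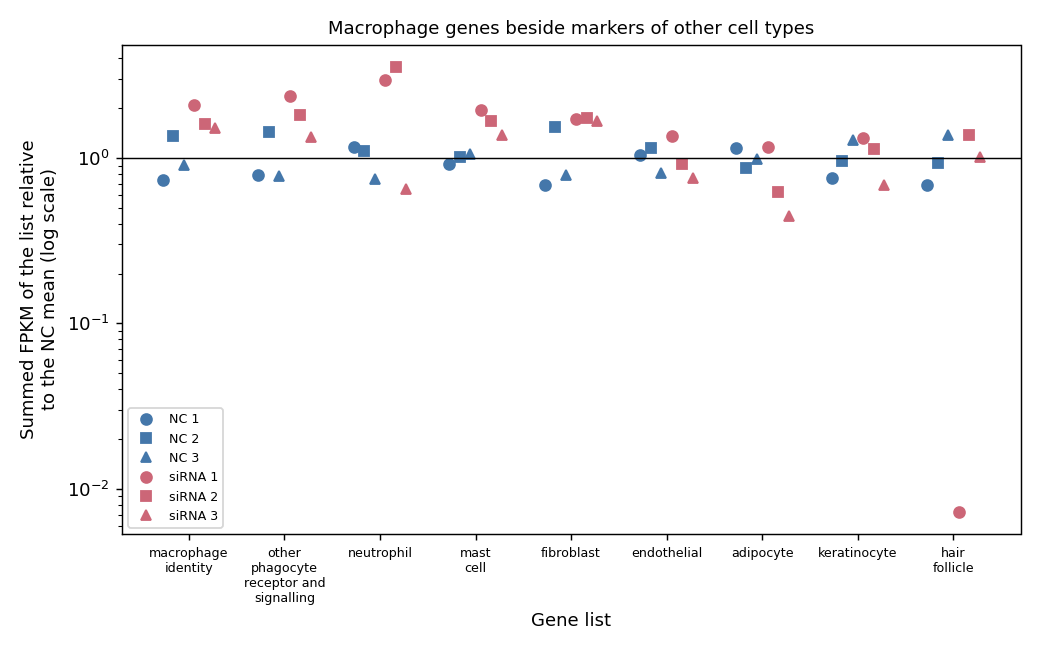
Summed FPKM of the macrophage identity genes, of further phagocyte genes and of markers of other cells in each library, divided by the mean of the NC libraries, on a log axis. NC 2 is the highest NC library for the identity genes and for fibroblasts, the neutrophil sum, mostly S100a8 and S100a9, is lowest in SFRP2-siRNA 3, and hair follicle markers are at 23.1 FPKM in SFRP2-siRNA 1.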

How the data were processed

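RNA-seq libraries were prepared from wound tissues with a paired-end mRNA kit, and the authors deposited 1 table of FPKM values for 33184 Ensembl gene IDs in 6 libraries. The submitters' processing notes name HISAT2, featureCounts and Subread; versions, genome build and annotation are not given in the sources used here. Symbols were matched for 32582 IDs. Low FPKM values were whole multiples of 1 read for a gene's GENCODE vM21 exon length, within 0.02 of a read, for 99.3% of genes with a length, which gave totals of 42900000 to 47100000 reads. Of the values of 1 to 20 reads 64.6% were even, as when both mates of a pair are counted.

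Values were analysed as log2(FPKM + 1) for the 16005 genes that averaged 0.5 FPKM or more, with limma 3.58.1 (intensity trend, two-sided) in R 4.3.3 and Benjamini-Hochberg adjustment over all of them. A call needed an adjusted p under 0.05 and an absolute log2 fold change above 1, the limits that the study's methods give for DESeq2, which does not suit FPKM. Exact permutation tests were two-sided over mean log2(FPKM + 1). Fits were tested on simulated data, with independent noise for each gene and planted changes of 2 on the log2 scale, larger than that of any member. That setting has no deviations shared by the genes of a library, so it does not show how the fits behave with libraries such as NC 1 and SFRP2-siRNA 1. Groups came from the titles. The p-values measure the spread between these libraries, which may be partly technical. The members, roles and lists were chosen with earlier results of these data known. Values per library were printed for members without overlap, main identity and resident genes, and the extremes of each role; other lists were named by up to 2 genes with the smallest p. Trem1, Axl and Spp1, also given per library, were chosen after their values were seen. Promoter sequences are from RefSeq, GRCm38.p6, first window per gene, leaving out chromosome 18.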

Additional observations from a re-analysis of the deposited data

How the results depend on the processing

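No member passed the adjusted threshold in any alternative. These were fits with 0.1 added in place of 1, without a filter on low values or with one at 2 FPKM, with equal library sums, median-of-ratios scaling, quantile normalization, without the intensity trend, sample weights, a replicate block, voom on recovered reads, each library left out, other limits on p and fold change, and, chosen after seeing the data, rescaling without mitochondrially encoded genes and leaving out NC 1 with SFRP2-siRNA 1. In the last of these 1 gene outside the members, the hair gene Krtap19-1, was called (log2 fold change 4.96, adjusted limma p 0.0326), with 1267 genes at an unadjusted p under 0.05.

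The number of members that did not overlap was 7 with median-of-ratios scaling and 5 with quantile normalization or rescaling without mitochondrially encoded genes, against 5.26%, 6.12% and 4.41% of all genes tested. The number at an unadjusted limma p under 0.05 was 7, 6 and 5 in these (15.9%, 13.6% and 11.4%). The shares of all genes tested were 7.46%, 7.27% and 6.65%. It was 2 without NC 1 and SFRP2-siRNA 1 (4.55%, against 7.87%), where the median of the members was 0.376. The 3 scalings named first took the median of all genes tested from 0.125 to 0, 0.026 and 0.041. The genes at an unadjusted p under 0.05 went from 1075 higher and 458 lower to 419 and 772 with median-of-ratios scaling. Rescaling to equal sums gave 21 members at that p (47.7%, against 8.09% of all genes tested), and voom gave 20 (45.5%, against 9.62%). Over the 6 fits that each left out a library, 11 to 33 members did not overlap, 3 to 30 had an unadjusted p under 0.05, the median of the members was 0.518 to 0.96, and Sfrp2 had 1.12 to 1.98. Without NC 3, 13 members (29.5%) did not overlap, against 29% of all genes tested, and 4 (9.09%) had an unadjusted p under 0.05, against 8.46%. Without SFRP2-siRNA 2, 9 members (20.5%) did, against 5.93%.

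Deviations of same-numbered libraries correlated at -0.05, -0.15 and 0.38, so the numbers were not taken as pairing. With the replicate block, 0 members passed the adjusted threshold and 15 had an unadjusted p under 0.05 (34.1%, against 12.1% of all genes tested). Of these, 8 were among the 15 without the block. The lowest adjusted p of a member was 0.282. Among 790 fits of single members, 786 kept direction and side of the threshold and 4 reversed: Ctsb at -0.016 with median-of-ratios scaling, Retnla at 0.184 without NC 3, and Tyro3 at -0.099 and Ctsb at -0.036 without NC 1 and SFRP2-siRNA 1. With single libraries left out, Tyro3 had 0.04 to 0.395, Retnla -0.568 to 0.184 and Ctsb 0.05 to 0.283. The cause was not tested. At 38 to 91 reads, Timd4 is the member that depth limits most.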
